A study of Homo sapiens with 6 samples.

Results

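The 10 genes described here are keratins of stratified (squamous) and simple epithelium: KRT4, KRT13, KRT5, KRT15, KRT6A and KRT17, called stratified below, and KRT7, KRT8, KRT18 and KRT19, called simple. They were chosen by name, from a list drawn up when FPKM comparisons of these same libraries were already known, and no threshold on a value was applied. All 10 were found among the 26255 gene symbols of every library. The values are FPKM, sequenced fragments scaled to the exon length of a gene and to the size of its library, so levels of different genes can be set side by side per length. Because the list was made with the results known, the differences of the 10 keratins between groups are given as values with their errors, and no test of them is used as support.

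The libraries came from BxPC-3 cells, a long-established line of human pancreatic cancer, with 2 libraries in each of 3 groups. Parent cells had no treatment, NC-1 cells received a negative control RNA, and miR-4711-5p cells received the microRNA, each 36 h before the RNA was taken. All groups were of the same line, so they carry the same background, and the study asked which transcripts change when miR-4711-5p is added. Which of the control RNAs used in the study NC-1 stands for was not established here, and nothing in the labels says that the 2 libraries of a group came from separate cultures, so the spread between them may be technical. The line was labelled as pancreas tissue. The epithelial markers EPCAM (91.6 to 109.7 FPKM), CDH1 (28.3 to 116.5 FPKM), KRT7 and KRT19 were present in every library. The ductal marker CFTR was at 0 or near it, at no more than 0.019 FPKM in any library.

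Keratins are the intermediate filament proteins of epithelial cells. A filament is built from pairs of a type I and a type II keratin, and the pairs in use mark the kind of epithelium. KRT8 and KRT18, with KRT7 and KRT19, are typical of single-layered epithelia such as pancreatic ducts. KRT5 marks the basal layer of stratified epithelia, KRT4 and KRT13 mark the upper layers of stratified epithelia that do not cornify, and KRT6A and KRT17 are induced in injured or rapidly growing epithelium. Squamous keratins are also known from some pancreatic cancers.

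The microRNA and the stretches of keratin message that its seed could pair with are shown first, because the choice of genes did not use sequence. The mature strand in RefSeq is encoded at chr1:59733269-59733291 (GRCh38.p14, minus strand), and the capitals mark its seed, bases 2 to 8.
miR-4711-5p: uGCAUCAGgccagaagacaugag
The forms of site searched, in the sense strand of transcripts (GENCODE, GRCh37), were CTGATGC (7mer-m8), TGATGCA (7mer-A1) and CTGATGCA (8mer, which holds both). None of the 10 keratins had a site in its longest annotated 3′ UTR, nor in the 3′ UTR of any other of its coding transcripts. Of the 10593 tested genes with a matched 3′ UTR, 1959 (18.5%) had one.

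Within the coding sequence, 3 of the 10 keratins had a site, and all of these were type II stratified keratins. The share among the 10599 tested genes with a matched coding sequence was 24.4%. KRT4 had an 8mer at chr12:53201616-53201623, KRT5 a 7mer-A1 at chr12:52911723-52911729, and KRT6A a 7mer-A1 at chr12:52884642-52884648 and a 7mer-m8 at chr12:52882301-52882307 (GRCh37, all on the minus strand and all in coding exons). A coding site was present in 3 of the 6 annotated coding transcripts of KRT5. KRT4 and KRT6A had 1 coding transcript each, and it held the sites. The sites are in capitals in the following stretches, which are shown because they are the only matches found in the group.
KRT4 8mer: ggtatccgtggCTGATGCAgagcagcgagg
KRT5 7mer-A1: gaggccaaggtTGATGCActgatggatga
KRT6A 7mer-A1: agagccttgtaTGATGCAgagctgtccca
KRT6A 7mer-m8: ggccgccattgCTGATGCtgagcagcgtg

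The KRT4 8mer and the KRT6A 7mer-m8 lie at the same place of related coding sequences. The 30 bases that best match the KRT4 stretch in each of the other type II keratins follow, with the 8 bases that face the KRT4 site in capitals, so that stratified and simple members can be compared at that place.
KRT4: ggtatccgtggCTGATGCAgagcagcgagg
KRT6A: ggccgccattgCTGATGCTgagcagcgtgg
KRT5: gaacgccattgCGGATGCCgagcagcgtgg
KRT8: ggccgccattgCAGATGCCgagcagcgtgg
KRT7: ggccgccattgCCGAGGCTgaggagcgtgg
Of the 8 capital bases, KRT6A shared 7 with the 8mer, KRT5 and KRT8 shared 6 each, and KRT7 shared 5. The stretches are at chr12:53201605-53201634 for KRT4, chr12:52882289-52882318 for KRT6A, chr12:52910598-52910627 for KRT5, chr12:53292640-53292669 for KRT8 (minus strand) and chr12:52639210-52639239 for KRT7 (plus strand). KRT13, KRT15, KRT17, KRT7 and KRT19, whose deposited values with miR-4711-5p were below all 4 controls, had no site in the coding sequence or the 3′ UTR, and neither had KRT8 and KRT18. A match of letters is a description and not a measured site of binding.

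KRT13 and KRT4, the pair of the upper layers, had the largest differences between miR-4711-5p and Parent among the 10 keratins. KRT4 (GRCh37 chr12:53200333-53207900) measured 43.0 and 40.2 FPKM in the Parent libraries, 32.3 and 33.0 in the NC-1 libraries, and 8.79 and 11.5 in the miR-4711-5p libraries. The groups did not overlap, and the miR-4711-5p mean was 0.244 of the Parent mean and 0.312 of the NC-1 mean. On the log2(FPKM + 1) scale, which understates the change of low genes, the difference was -1.94 ± 0.11 (SE) from Parent and -1.60 ± 0.11 from NC-1. In bulk RNA, fewer cells that express a gene and less of its RNA per cell cannot be told apart, which holds for every value below. KRT13 (chr17:39657233-39661957) measured 1405 and 1335 FPKM in Parent, 889.6 and 924.1 in NC-1, and 339.7 and 397.0 with miR-4711-5p. The log2 difference was -1.90 ± 0.07 from Parent and -1.30 ± 0.07 from NC-1, and the groups again did not overlap. Ordered by decrease from Parent, KRT4 was at place 13 and KRT13 at place 15 of 12040 genes.

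The basal layer keratins differed less than this pair. KRT5 (chr12:52908359-52914314), the type II keratin of basal cells, had 1445 and 1391 FPKM in Parent, 982.3 and 896.9 in NC-1, and 531.2 and 561.6 with miR-4711-5p. Its mean with miR-4711-5p was 0.385 of Parent and 0.582 of NC-1, with log2 differences of -1.37 ± 0.06 and -0.78 ± 0.06. KRT15 (chr17:39669997-39678781), a type I keratin of basal cells without a type II partner that is specific to it, had 31.2 FPKM in both Parent libraries, 21.8 and 22.4 in NC-1, and 12.6 and 15.1 with miR-4711-5p. The log2 differences of KRT15 were -1.12 ± 0.08 from Parent and -0.64 ± 0.08 from NC-1. For both genes NC-1 lay between the other groups without overlap.

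The inducible keratins differed from each other in the control transfection. KRT6A (chr12:52880960-52887041) measured 694.4 and 659.7 FPKM in Parent, 424.5 and 429.8 in NC-1, and 238.2 and 248.8 with miR-4711-5p, with log2 differences of -1.47 ± 0.04 from Parent and -0.81 ± 0.04 from NC-1. KRT17 (chr17:39775694-39781094) measured 1900 and 1745 FPKM in Parent, 2347 and 2074 in NC-1, and 1006 and 963.1 with miR-4711-5p. KRT17 was thus the stratified keratin whose NC-1 libraries lay above Parent, by 0.28 ± 0.07 on the log2 scale, while both miR-4711-5p libraries lay below all 4 controls. Its log2 difference with miR-4711-5p was -0.89 ± 0.07 from Parent and -1.16 ± 0.07 from NC-1. Among all symbols of a library ordered by FPKM, KRT17 stood at 29 and 32 in Parent, at 11 and 17 in NC-1 and at 67 and 75 with miR-4711-5p.

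The simple keratins did not move as one. KRT8 (chr12:53290971-53343738), the type II keratin of simple epithelia, measured 1493 and 1361 FPKM in Parent, 1162 and 1093 in NC-1, and 1353 and 1329 with miR-4711-5p. Its miR-4711-5p libraries were above NC-1, by 0.25 ± 0.06 on the log2 scale, and the value against Parent was -0.09 ± 0.06, which became 0.05 when every library was rescaled to the same sum. KRT18 (chr12:53342655-53346690), the type I partner of KRT8, measured 1116 and 1070 FPKM in Parent, 1034 and 962.6 in NC-1, and 1251 in each of the miR-4711-5p libraries. It was the keratin of the 10 whose miR-4711-5p libraries both lay above all 4 controls, with log2 differences of 0.19 ± 0.05 from Parent and 0.33 ± 0.05 from NC-1. The annotated spans of KRT8 and KRT18 overlap at one end on opposite strands. The library kit kept strand, but whether the counting used it is not given in the sources used here.

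KRT7 and KRT19, both typical of ducts, went apart. KRT7 (chr12:52626304-52645970) measured 1725 and 1663 FPKM in Parent, 1842 and 1736 in NC-1, and 1617 and 1562 with miR-4711-5p. The log2 difference of KRT7 was -0.09 ± 0.05 from Parent and -0.17 ± 0.05 from NC-1, and the first of these became 0.05 after rescaling to equal sums. KRT19 (chr17:39679869-39684560), the shortest keratin and one also found in basal cells of stratified epithelia, measured 1700 and 1559 FPKM in Parent, 1294 and 1254 in NC-1, and 890.1 and 911.6 with miR-4711-5p. Its groups did not overlap, and the log2 difference was -0.85 ± 0.05 from Parent and -0.50 ± 0.05 from NC-1. The change of KRT19 from Parent was thus near that of KRT17, the stratified keratin with the smallest difference.

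**Figure D1:**
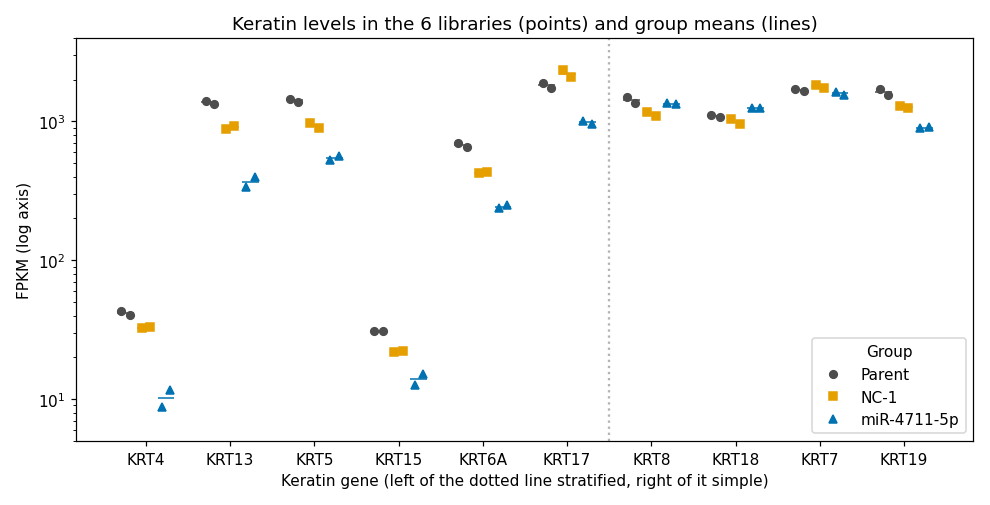
FPKM (log axis) of the 10 keratins in the 6 libraries, with a point for each library, a short line for each group mean, and a dotted line between stratified and simple keratins. On the deposited scale, the miR-4711-5p points (triangles) lie below all control points for the 6 stratified keratins and for KRT7 and KRT19, and above them for KRT18.

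Counted by the limma call across all genes tested (Benjamini-Hochberg adjusted p under 0.05), 7 of the 10 keratins were lower in miR-4711-5p libraries than in Parent ones, where 24.7% of all genes were lower. A single keratin, KRT18, was higher, where 18.7% of all genes were higher. Against NC-1, 8 were lower (background 21.2%) and 2, KRT8 and KRT18, were higher (background 18.4%). Between NC-1 and Parent, 6 were lower (background 15.1%) and KRT17 was higher (background 12.1%). Both miR-4711-5p libraries lay below all 4 controls for 8 of the 10 keratins (26.3% of all genes did), KRT7 among them only on the deposited scale of the libraries, and above them for 1 (23.8% of all genes did). Since these comparisons chose the list, nothing is read from its counts. The median log2 difference of the 6 stratified keratins was -1.42 from Parent and -0.99 from NC-1, that of the 4 simple keratins was -0.09 and 0.04, and that of all genes tested was -0.01 and 0.00.

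The calls of KRT17 between NC-1 and Parent, of KRT7 and KRT8 against NC-1, and of KRT18 against Parent were the ones lost in some settings. With no filter on low values none of these 4 calls held, without a trend in the fit those of KRT17 and KRT7 did not, and after rescaling to equal sums that of KRT7 did not. KRT17 lost its call without Parent replicate 1, Parent replicate 2, NC-1 replicate 1 or miR-4711-5p replicate 2, KRT7 without NC-1 replicate 1 or either miR-4711-5p replicate, KRT8 without NC-1 replicate 2 or either miR-4711-5p replicate, and KRT18 without Parent replicate 2 or either miR-4711-5p replicate. The log2 differences without these single libraries were 0.19 to 0.34 for KRT17, -0.19 to -0.13 for KRT7, 0.21 to 0.26 for KRT8 and 0.16 to 0.19 for KRT18. KRT4 between NC-1 and Parent (-0.34) was past the threshold only without 1 of the miR-4711-5p libraries, either of them, and KRT7 between NC-1 and Parent (0.08) only after rescaling to equal sums (0.16).

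**Figure D2:**
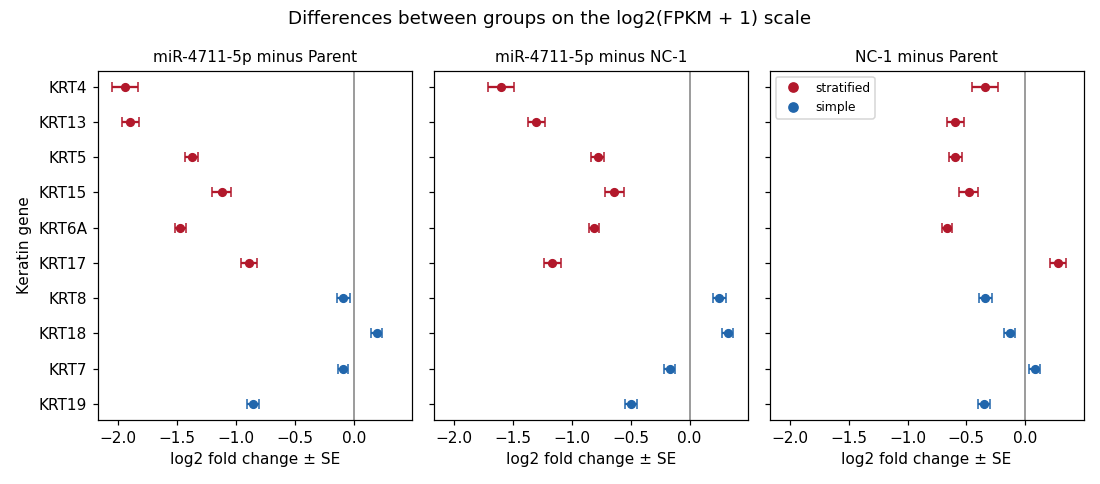
Differences in log2(FPKM + 1) between groups for each keratin (points) with the standard error from limma (bars), in red for stratified and in blue for simple keratins. In both comparisons with miR-4711-5p the 6 stratified keratins and KRT19 lie at -0.50 or lower, and in NC-1 against Parent KRT17 lies at 0.28 while the other 5 stratified keratins lie between -0.66 and -0.34.

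Summed within a library, the classes no longer had near equal levels with miR-4711-5p. The 6 stratified keratins summed to 5518 and 5202 FPKM in Parent, 4697 and 4380 in NC-1, and 2137 and 2197 with miR-4711-5p. The 4 simple keratins summed to 6034 and 5653 FPKM in Parent, 5333 and 5046 in NC-1, and 5112 and 5054 with miR-4711-5p. The simple sums of NC-1 and miR-4711-5p overlapped, whereas the stratified sums of all 3 groups were apart. The ratio of the stratified to the simple sum, which does not depend on the scale of a library, was 0.914 and 0.920 in Parent, 0.881 and 0.868 in NC-1, and 0.418 and 0.435 with miR-4711-5p. The log2 of this ratio differed by -1.11 from Parent and by -1.04 from NC-1, and NC-1 differed from Parent by -0.07. The value for NC-1 against Parent was -0.21 from geometric means and -0.32 without KRT17 and KRT7, the most abundant member of each class. The simple share of the summed keratins was 52.2% ± 0.1 (SD, n = 2) in Parent, 53.3% ± 0.3 in NC-1 and 70.1% ± 0.6 with miR-4711-5p. The 10 keratins together made up 2.05% ± 0.07 of all FPKM in Parent, 1.89% ± 0.08 in NC-1 and 1.46% ± 0.01 with miR-4711-5p. As the share of the library, the simple keratins took 1.07% ± 0.04, 1.01% ± 0.04 and 1.02% ± 0.02 in the same order of groups. An exact permutation test of 2 libraries against 2 could not have given a small p, so none was run on these ratios.

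**Figure D3:**
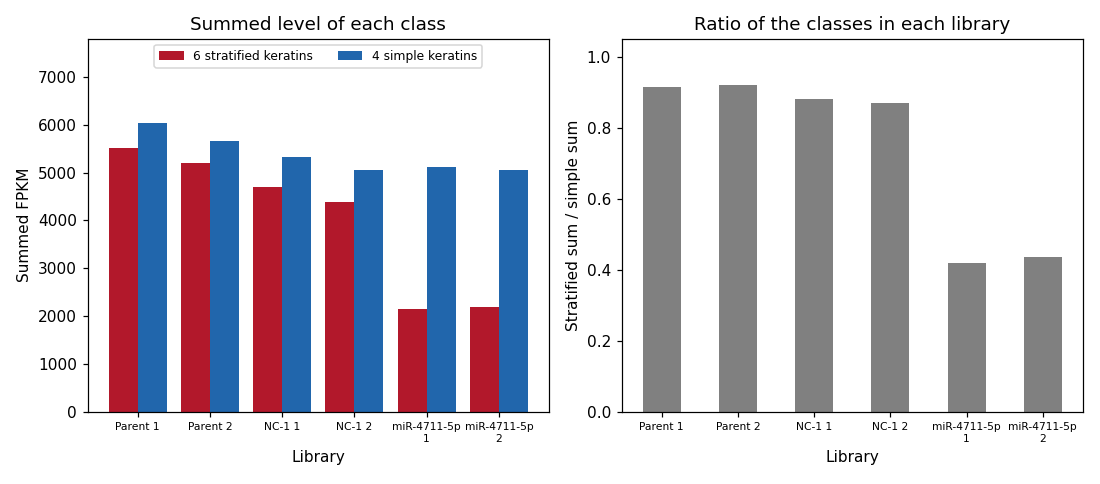
Summed FPKM of the 6 stratified and the 4 simple keratins in each library (left) and the ratio of the sums (right), with a bar for each value. The ratio is between 0.868 and 0.920 in the 4 control libraries and is 0.418 and 0.435 in the miR-4711-5p libraries.

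The order of levels changed with it. In Parent the order of group means was KRT17 (1822 FPKM), KRT7, KRT19, KRT8, KRT5, KRT13, KRT18 (1093), KRT6A (677.0), KRT4 (41.6) and KRT15 (31.2), and the neighbours KRT7 and KRT19, KRT8 and KRT5, and KRT5 and KRT13 had overlapping libraries. In NC-1 it was KRT17 (2211 FPKM), KRT7, KRT19, KRT8, KRT18, KRT5, KRT13, KRT6A, KRT4 and KRT15, with overlap between KRT18 and KRT5 and between KRT5 and KRT13. With miR-4711-5p it was KRT7 (1590 FPKM), KRT8, KRT18, KRT17, KRT19, KRT5, KRT13, KRT6A, KRT15 and KRT4 (10.2), with no overlap between neighbours. The first 3 places were thus held by simple keratins with miR-4711-5p and the first by KRT17 in both control groups.

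By filament partner, the levels moved apart in some pairs and together in others. The type II over type I ratio was 1.31 ± 0.05 (SD, n = 2) for KRT8 and KRT18 in Parent, 1.13 ± 0.01 in NC-1 and 1.07 ± 0.01 with miR-4711-5p. For KRT7 and KRT19 it was 1.04 ± 0.04, 1.40 ± 0.03 and 1.77 ± 0.07 in that order, with no overlap between groups. For KRT6A and KRT17 it was 0.372 ± 0.009, 0.194 ± 0.019 and 0.248 ± 0.015. For KRT4 and KRT13 it was 0.0304 ± 0.0004, 0.0360 ± 0.0004 and 0.0275 ± 0.0023, so that KRT4 was a small fraction of its partner in every group. For KRT5 and KRT15 the ratio was 45.5 ± 1.2, 42.6 ± 3.6 and 39.7 ± 3.6, and the libraries of neighbouring groups overlapped. Summed over the members, type II over type I was 0.885 ± 0.009 in Parent, 0.798 ± 0.003 in NC-1 and 1.06 ± 0.02 with miR-4711-5p.

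Position in the genome, a feature that the choice did not use, did not separate the classes, and both gene clusters held both. Of the 10 keratins, 6 lie among 27 coding genes, all keratins, between KRT80 and KRT18 on chromosome 12. Of the other 21 genes there, 2 (KRT80 and KRT6B) had a mean of at least 1 FPKM, and no group mean of the other 19 passed 0.402 FPKM. On chromosome 17, KRT13, KRT15 and KRT19 are consecutive coding genes, and KRT17 lies 4 genes beyond KRT19, past KRT9, KRT14 and KRT16. KRT19, simple by class, thus has KRT15 as its neighbour, and KRT18, although of type I, lies beside KRT8 in the type II cluster. KRT6A and KRT5 are neighbours as well, with log2 differences from Parent of -1.47 and -1.37.

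**Figure D4:**
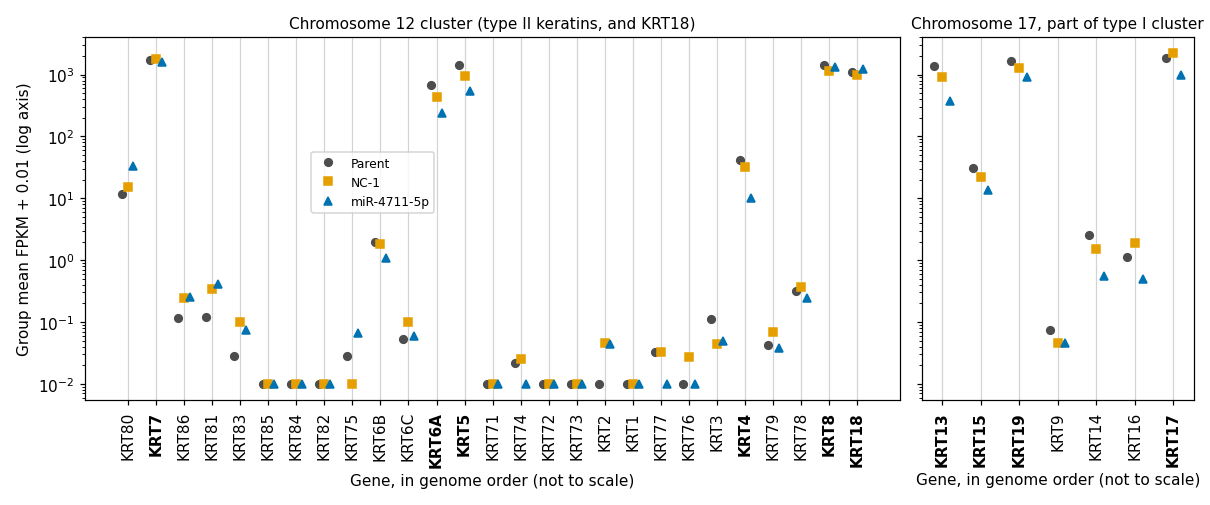
Group mean FPKM plus 0.01 (log axis) of the coding genes of the keratin cluster on chromosome 12 and of the KRT13 to KRT17 stretch on chromosome 17, in genome order, with the 10 keratins in bold. Of the non-members drawn, KRT80, KRT6B, KRT14 and KRT16 average 1 FPKM or more. KRT80, next to KRT7, has a mean of 32.7 FPKM with miR-4711-5p, 11.9 in Parent and 15.5 in NC-1.

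The 45 other keratins and the further lists below were drawn up with results of these data known, so their counts are not independent evidence of a direction. Of the 45 on a list written for this comparison, 6 averaged 1 FPKM or more. With limma, 4 of these were lower and 2 higher in miR-4711-5p against Parent, and 3 were lower and 1 higher against NC-1, where the shares over all genes tested were 24.7% and 18.7%, and 21.2% and 18.4%, in the same order. The count against NC-1 was 2 (1 lower and 1 higher) without NC-1 replicate 1 or without miR-4711-5p replicate 1. Against Parent, 2 were lower and 2 higher without Parent replicate 1 or without miR-4711-5p replicate 1, where KRT6B and KRT16 lost their calls. KRT14 and KRT6B lost theirs against NC-1 without NC-1 replicate 1 or miR-4711-5p replicate 1, and KRT6B also without NC-1 replicate 2. The median log2 difference of the 6 was -0.53 from Parent and -0.32 from NC-1. KRT14, the type I partner of KRT5 in basal cells, was present at only 2.47 and 2.69 FPKM in Parent, 1.79 and 1.22 in NC-1, and 0.312 and 0.764 with miR-4711-5p (limma adjusted p = 0.0016 against Parent and 0.018 against NC-1). KRT16, an inducible type I keratin of the same setting as KRT17, was 1.15 and 1.09 FPKM in Parent, 1.80 and 1.94 in NC-1, and 0.406 and 0.559 with miR-4711-5p (limma adjusted p = 0.0133 and 0.0011). KRT16 thus had the same order of groups as KRT17. KRT6B, a near copy of KRT6A, fell by 0.54 on the log2 scale from Parent and by 0.46 from NC-1 (limma adjusted p = 0.0133 and 0.027). KRT80, a type II epithelial keratin, had means of 11.9 ± 0.2 (SD, n = 2) FPKM in Parent, 15.5 ± 0.3 in NC-1 and 32.7 ± 0.1 with miR-4711-5p, a log2 difference of 1.39 ± 0.05 from Parent (limma adjusted p = 4.25e-06). KRT23 had a log2 difference of 0.74 ± 0.15 from Parent (limma adjusted p = 0.0068) and of 0.41 from NC-1 (0.065), where it passed the threshold with equal sums (0.45) and without NC-1 replicate 2 (0.59). KRT10, a keratin of upper epidermal layers, had values of -0.57 from Parent (limma adjusted p = 0.0015) and -0.19 from NC-1 (0.106).

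Of 14 genes on a list of keratin linkers and binding partners, limma called 12 lower and none higher in miR-4711-5p against Parent. Against NC-1 it called 9 lower and none higher (all genes: 24.7% lower and 18.7% higher against Parent, and 21.2% and 18.4% against NC-1). PPL (periplakin) had a mean of 124.6 FPKM in Parent, 118.5 in NC-1 and 60.1 with miR-4711-5p, a log2 difference of -1.04 ± 0.05 from Parent (limma adjusted p = 1.44e-05). EPPK1 (epiplakin, which binds keratins), PKP1 (a desmosomal plakophilin), EVPL (envoplakin), AHNAK and SFN (14-3-3 sigma) had log2 differences from Parent of -0.77, -0.64, -0.64, -0.63 and -0.59, each past the threshold against both controls. The call of EPPK1 against NC-1 was lost without miR-4711-5p replicate 2 (-0.29). The plectin and desmoplakin genes, PLEC and DSP, were lower against Parent by -0.30 and -0.17 (limma adjusted p = 0.016 and 0.041) and not past the threshold against NC-1 (0.119 and 0.324). Both calls against Parent were lost with no filter, with equal sums, and without Parent replicate 1 or miR-4711-5p replicate 2, and that of DSP also without a trend and without miR-4711-5p replicate 1. With a replicate block PLEC was past the threshold against NC-1 as well. The median of the 14 was -0.54 from Parent and -0.37 from NC-1.

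Of 22 tested regulators of stratified or simple epithelium, limma called 9 lower and 3 higher in miR-4711-5p against Parent, and 10 lower and 3 higher against NC-1 (all genes: 24.7% lower and 18.7% higher, and 21.2% and 18.4%). The median log2 difference of the 22 was -0.04 from Parent and -0.18 from NC-1. TP63, the master factor of stratified epithelium, was 60.2 and 67.1 FPKM in Parent, 55.0 and 60.1 in NC-1, and 39.0 and 36.6 with miR-4711-5p, a log2 difference of -0.73 ± 0.07 from Parent (limma adjusted p = 0.00024). KLF5, the factor the study began from, fell by 0.91 from Parent and by 0.89 from NC-1 (limma adjusted p = 8.46e-05 and 0.00012). OVOL2, EHF and ELF3, further epithelial factors, had log2 differences from Parent of -0.72, -0.67 and -0.59. SOX9, a factor of duct cells, was 6.40 and 6.57 FPKM in Parent, 7.62 and 7.78 in NC-1, and 15.3 and 13.0 with miR-4711-5p, a log2 difference of 1.01 ± 0.08 (limma adjusted p = 9.4e-05). The other regulators called higher against Parent were KLF4 and ZNF750, both factors of squamous differentiation, by 0.54 and 0.44 (limma adjusted p = 0.00085 and 0.0086), and against NC-1 their values were 0.23 and -0.04 (0.031 and 0.769). SOX2, a factor of stratified epithelium, had a value of -0.01 from Parent (limma adjusted p = 0.905), which became 0.12 with equal sums, and was higher than in NC-1 by 0.51 (0.00084). Of the factors of gut and pancreas epithelium, FOXA2 was lower than in Parent by -0.46 (limma adjusted p = 0.0018) with a value of -0.09 against NC-1 (0.356). GATA6 and FOXA1 had values of 0.00 and 0.05 from Parent and 0.16 and 0.23 from NC-1, none past the threshold. FOXA1 passed it against NC-1 with equal sums, with a replicate block or without NC-1 replicate 2. The calls against NC-1 of ELF3 (without NC-1 replicate 2 or miR-4711-5p replicate 1) and of KLF4 (with no filter, and without NC-1 replicate 1 or either miR-4711-5p replicate), and that of ZNF750 against Parent (without miR-4711-5p replicate 2), were lost in the settings in parentheses.

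Of 18 tested genes of the cornified envelope and squamous differentiation, limma called 13 lower and 4 higher against Parent, and 9 lower and 3 higher against NC-1 (all genes: 24.7% lower and 18.7% higher, and 21.2% and 18.4%). The median log2 difference of the 18 was -0.59 from Parent and -0.44 from NC-1. LY6D, a surface protein of stratified epithelium, was 89.4 and 87.5 FPKM in Parent, 63.9 and 76.3 in NC-1, and 20.5 and 23.2 with miR-4711-5p (log2 difference -1.97 ± 0.09 from Parent, limma adjusted p = 9.67e-06). SPRR1B, ECM1 and the desmoglein DSG3 had log2 differences from Parent of -1.14, -1.04 and -0.93, and from NC-1 of -0.48, -0.75 and -0.46. In NC-1 against Parent their values were -0.65, -0.30 and -0.48. SPRR1B lost its call against NC-1 without miR-4711-5p replicate 1. The small proline-rich genes SPRR2D and SPRR2A were higher instead, by 1.99 ± 0.19 and 1.36 ± 0.21 (limma adjusted p = 0.00021 and 0.0021), from 0.626 and 1.43 FPKM for SPRR2D in Parent to 6.28 and 7.57 with miR-4711-5p. Of 7 tested intermediate filament genes other than keratins, limma called 4 lower and 1 higher against Parent, and 1 lower and 3 higher against NC-1, beside the same shares over all genes. Their median log2 difference was -0.24 from Parent and 0.06 from NC-1. SYNM (synemin) was higher and SYNC (syncoilin) lower in both comparisons, by 0.32 and -0.24 from Parent. The call of SYNM against Parent was lost without Parent replicate 2 or either miR-4711-5p replicate, and SYNC lost its calls with equal sums and without either miR-4711-5p replicate, against Parent also without Parent replicate 2, and against NC-1 also with no filter and without NC-1 replicate 2. Vimentin (VIM) was 21.0 and 22.1 FPKM in Parent, 18.2 and 13.8 in NC-1, and 23.2 and 23.0 with miR-4711-5p (limma adjusted p = 0.527 against Parent and 0.0094 against NC-1, the latter call being lost without either miR-4711-5p replicate).

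By likeness of pattern, the keratin with the widest span of group means in each class was set against the 6638 genes that averaged 10 FPKM or more. The distance is Euclidean over log2(FPKM + 1) in the 6 libraries, each gene centred on its own mean, so genes share library and scale. Nearest to KRT4 were LY6D (distance 0.21, Pearson r = 0.995), FCF1 (0.35, 0.989), CDH1 (0.36, 0.987), GTF3A (0.36, 0.985) and TAGLN2 (0.37, 0.995). Nearest to KRT19 were S100A2 (0.075, 0.997), CD9 (0.105, 0.994), CDCA7L (0.109, 0.992), SLC9A3R1 (0.123, 0.991) and IGFBP6 (0.139, 0.987). CDH1, the epithelial cadherin, was 114.2 and 116.5 FPKM in Parent, 109.4 and 109.6 in NC-1, and 28.3 and 30.9 with miR-4711-5p.

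Other measures moved with the groups. Summed FPKM were 550772 and 543074 in Parent, 515688 and 515348 in NC-1, and 493145 and 499659 with miR-4711-5p. Rescaling to equal sums shifted the median log2 difference of all genes between miR-4711-5p and Parent by 0.12. Depth in reads is unknown. A rough relative depth was taken from the most common ratio of values under 0.1 FPKM to those of Parent 1, on which a minority of the low genes used lay (29.1% in the lowest library), and it was 0.751 to 0.873 in the other controls and 1.08 and 1.21 with miR-4711-5p. The 6 acinar markers summed to 0.730 to 1.57 FPKM in Parent, 2.62 to 2.73 in NC-1 and 3.18 to 5.10 with miR-4711-5p, with 4 of them at 0 in every library. Only PRSS1 among them reached 1 FPKM in any library. The 4 islet markers summed to at most 0.050 FPKM, the 6 fibroblast markers to at most 2.47 and the 6 leukocyte markers to at most 0.979. The 4 endothelial markers summed to 1.33 to 1.39 FPKM in Parent, 3.25 to 3.53 in NC-1 and 0.649 to 0.775 with miR-4711-5p, and these ranges did not overlap. Only CDH5 among them reached 1 FPKM in any library, with 0.995 and 0.929 in Parent, 3.16 and 2.88 in NC-1, and 0.612 and 0.469 with miR-4711-5p. VWF was instead lower in NC-1 (0.176 and 0.203 FPKM) than in Parent (0.279 and 0.319). The part of these cell types, of library sum and of depth in the keratin differences was not tested, and the ratios within a library given above do not depend on its sum. Pseudogenes named for KRT17, KRT8, KRT18 and KRT19 had at most 0.166 FPKM, and KRT6C, a near copy of KRT6A, at most 0.115. How many reads the keratins share with such copies was not measured.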

How the data were processed

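The authors prepared stranded mRNA libraries and sequenced them in single-end mode with reads of 75 bases. Per the labels and the study's methods, the hg19 genome, TopHat, Bowtie2 and SAMtools served for mapping, and the deposited values are FPKM per gene symbol, calculated by the authors with the Cufflinks suite. The submitters' processing notes name TopHat2 2.1.1, Bowtie2 2.3.5.1, SAMtools 1.2 and Cufflinks 2.2.1, and the paper names other versions of the first 3. The gene annotation, the strand option and the normalization option are not given in the sources used here. Read depth is unknown, and no model for counts was applied to FPKM.

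The 12040 genes that averaged 1 FPKM or more were fitted with limma 3.58.1 in R 4.3.3 on log2(FPKM + 1), with all 3 groups in 1 fit, an eBayes trend, 3 residual degrees of freedom, two-sided tests and Benjamini-Hochberg adjustment at 0.05 over all genes tested. P-values measure only the spread between these libraries. Other steps used Python 3.11.15, numpy 2.4.6, pandas 2.3.3 and matplotlib 3.10.9. The fit was tested on simulated data. The 10 keratins and all gene lists were chosen with earlier results of these data known. Named genes are the 10 keratins, other keratins with a mean of at least 1 FPKM, and from each further list at most 6 genes past the threshold against both controls in 1 direction, by size of the difference from Parent. PLEC, DSP, VIM, KLF4, ZNF750, SOX2, FOXA1, FOXA2 and GATA6 were named outside this rule, after their values were seen. For likeness, the 5 genes nearest to KRT4 and to KRT19 were named. Symbols of 10593 genes were matched to 3′ UTRs of GENCODE v44 lifted to GRCh37, the longest per gene being used. Coding sites of the 10 keratins were located in the transcript with that 3′ UTR. The share over all genes and the best-matching stretches used the longest coding sequence of each gene, where 3 of the 10 keratins also had a site. Alternatives were a pseudocount of 0.1, no filter, median-of-ratios rescaling, no trend, a replicate block, each library left out in turn, other summaries of the classes and, chosen after seeing the data, rescaling to equal sums.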

Additional observations from a re-analysis of the deposited data

How the results depend on the processing

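With 2 libraries a group, each left-out library moved the counts over all genes. For miR-4711-5p against Parent the count called was 5230, and 3246 to 5185 with 1 library left out. Against NC-1 it was 4763, and 2887 to 4679. For NC-1 against Parent it was 3279, with 1457 to 2385 when a library was left out and 2165 with no filter on low values. The count of other keratins called against NC-1 was 4, and 2 to 4 with a library left out, and for NC-1 against Parent it was 3, and 1 to 2, and against Parent 6, and 4 to 6. The log2 ratio of stratified to simple sums was -1.11 against Parent, -1.24 from geometric means and -1.33 without KRT17 and KRT7. For NC-1 against Parent it was -0.07, -0.21 and -0.32 in that order. Rescaling to equal sums, chosen after seeing the data, turned the split from 2255 higher and 2975 lower to 4014 and 1775 against Parent, from 2214 and 2549 to 2925 and 2083 against NC-1, and from 1456 and 1823 to 2325 and 1000 for NC-1 against Parent. It turned the sign of KRT7 (0.048), KRT8 (0.0515) and SOX2 (0.117) against Parent, of ZNF750 (0.0015) against NC-1, and of EVPL (0.0042), KLF5 (0.062) and PPL (0.014) in NC-1 against Parent, and median-of-ratios factors that of GATA6 (-0.00030) against Parent. In NC-1 against Parent, leaving out single libraries also turned signs, over the ranges -0.089 to 0.145 for AHNAK, -0.157 to 0.0039 for EVPL, -0.083 to 0.038 for KLF5, -0.153 to 0.569 for SPRR2A and -0.046 to 0.053 for SYNC. The same held for ZNF750 against NC-1 (-0.089 to 0.011) and for SOX2 (-0.038 to 0.016), FOXA1 (-0.029 to 0.132) and GATA6 (-0.086 to 0.087) against Parent. The causes of these changes were not tested. Libraries with the same replicate number did not deviate together (correlations of deviations 0.061, 0.003 and -0.009). This cannot say whether they were prepared together, and the labels do not give it. With the replicate number as a block, 4983, 4564 and 2864 genes were called, and 8, 10 and 7 members, as without the block. With no filter 7, 8 and 6 members were called, without a trend 8, 9 and 6, and with equal sums 8, 9 and 8. Depth is unknown, so it sets no limit that can be given for single genes.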
